A study of Mus musculus with 34 samples.

Results

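The PROX1 cistrome of control mouse liver was read as the list of 27423 peaks that the authors deposited for this factor, out of 72923 peaks over the 3 lists of the series. Every entry of the list was taken as a member, with no further choice by signal. Chromatin immunoprecipitation followed by sequencing (ChIP-seq) recovers DNA fragments cross-linked to a protein, and a peak is a stretch where such fragments pile up above an IgG control. The list rests on 3 control livers of male C57B/6 mice, 10 weeks old, killed at ZT10, that is 10 h after lights on. No allele or agent is named for these controls in the labels. The reads of the 3 livers were pooled before peaks were called, so the list has no replicates, no read count and no score, its sequencing depth cannot be read from it, and no spread between livers can be given. Intervals and p-values below therefore treat peaks as the units and cover counting error alone, although peaks close together may not vary independently. Comparisons use the HDAC3 list, also from 3 control livers of the same description, and the HNF4A list, from 2 livers of mice with a floxed *Hnf4a* gene that had received AAV8 TBG Egfp, a virus whose hepatocyte promoter drives a marker protein in place of Cre. Whole liver was used, so peaks of hepatocytes and of other liver cells cannot be told apart by position alone.

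PROX1 is a homeodomain protein related to *Drosophila* Prospero. It is needed for growth of the embryonic liver and for lymphatic vessels, and it stays present in adult hepatocytes. It binds nuclear receptors such as HNF4A and LRH-1 and is known chiefly as a corepressor, while HDAC3 is the histone deacetylase of the NCoR corepressor complexes.

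All PROX1 peaks were 200 bp wide and together covered 5484.6 kb, or 0.207% of the mm9 chromosomes. Of the peaks, 73.1% stood at identical positions in the HDAC3 list, as classified by the authors, and 54.7% were covered over at least 50% of their length by an HNF4A peak. A further split gave 12284 peaks with both partners, 7755 with HDAC3 alone, 2707 with HNF4A alone and 4677 with neither, the last being 17.1% of the list. The label was checked against genes that mark cell types. The hepatocyte marker genes *Alb*, *Ttr*, *Apoa1*, *Serpinc1*, *Cps1* and *Hnf4a* had 9, 7, 11, 4, 7 and 11 peaks in their windows. Of 43 genes that mark lymphatic or sinusoidal endothelium, Kupffer cells, stellate cells, cholangiocytes or neurons, 12 (27.9%) had any peak, against 44.9% of all protein-coding genes. With 5 or more peaks there were 5 (11.6%), near the 12.3% of all genes, so the share was lower only for any peak.

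Of the loci described below, 6 are shown here by 1 peak each, chosen as the peak in the gene's window that holds the most different motifs of 6 liver factors and touches no exon, with ties settled by distance from the gene start. Sequences are from the plus strand of mm9, 5′ to 3′, and capitals mark matches on either strand to HNF4 (CAAAGTNCA), a nuclear receptor half-site (AGGTCA), C/EBP (TTGCNNAA), FOXA (TGTTTAC), ONECUT (TATTGAT) or the HNF1 motif. They are shown because each of the 6 motifs was in a larger share of peaks than of flanks, as given with the motif search below.
*Apoa5*, chr9:46067266-46067465: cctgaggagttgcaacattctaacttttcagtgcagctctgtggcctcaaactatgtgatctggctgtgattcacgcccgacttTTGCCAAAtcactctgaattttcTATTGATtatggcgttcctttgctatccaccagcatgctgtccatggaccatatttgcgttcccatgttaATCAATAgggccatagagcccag
*Pck1*, chr2:172949940-172950139: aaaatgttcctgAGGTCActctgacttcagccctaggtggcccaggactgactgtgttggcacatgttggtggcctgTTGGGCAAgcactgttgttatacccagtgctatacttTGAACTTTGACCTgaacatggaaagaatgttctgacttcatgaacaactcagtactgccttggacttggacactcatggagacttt
*Gpam*, chr19:55213852-55214051: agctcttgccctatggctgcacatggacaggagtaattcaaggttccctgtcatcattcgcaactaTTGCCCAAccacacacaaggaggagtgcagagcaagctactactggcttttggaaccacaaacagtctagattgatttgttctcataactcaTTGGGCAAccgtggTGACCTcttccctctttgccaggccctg
*Leap2*, chr11:53259787-53259986: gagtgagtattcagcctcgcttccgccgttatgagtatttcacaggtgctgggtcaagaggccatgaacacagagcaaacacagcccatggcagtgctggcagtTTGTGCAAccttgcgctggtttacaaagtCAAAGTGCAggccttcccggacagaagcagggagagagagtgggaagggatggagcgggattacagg
*Nr5a2*, chr1:138854360-138854559: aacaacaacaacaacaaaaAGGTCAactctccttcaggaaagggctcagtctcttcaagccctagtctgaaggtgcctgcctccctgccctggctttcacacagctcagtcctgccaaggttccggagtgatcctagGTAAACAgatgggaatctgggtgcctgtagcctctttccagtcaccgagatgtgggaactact
*Prox1*, chr1:191954844-191955043: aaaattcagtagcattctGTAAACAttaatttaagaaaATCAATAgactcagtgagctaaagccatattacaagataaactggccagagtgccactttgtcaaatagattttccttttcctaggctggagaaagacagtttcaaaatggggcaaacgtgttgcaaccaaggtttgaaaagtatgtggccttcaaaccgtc
The *Pck1* peak held 4 matches of 3 factors, with the HNF4 match and a half-site overlapping at its middle, and its HNF4A score of 125.3 was the highest of the 12 peaks in the window. The *Apoa5* peak, at -9.35 kb, held 1 C/EBP and 2 ONECUT matches. The *Prox1* peak lay in an intron of the gene that encodes the factor itself, 39.6 kb downstream of its start, with a FOXA and an ONECUT match. The *Nr5a2* peak, in an intron of the LRH-1 gene, was in neither the HDAC3 nor the HNF4A list.

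A second set shows PROX1 peaks with neither partner that hold an ONECUT match, the class where that motif was most frequent. They are the 3 such peaks outside exons that lay nearest to the start of a gene named below for its number or density of peaks. *Arhgap26* was left out of this choice.
*Thrb*, chr14:18487675-18487874: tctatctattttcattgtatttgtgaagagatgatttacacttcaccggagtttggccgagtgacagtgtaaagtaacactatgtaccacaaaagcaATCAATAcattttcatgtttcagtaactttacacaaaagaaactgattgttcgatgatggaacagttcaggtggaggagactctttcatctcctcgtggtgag
*Chn2*, chr6:53983239-53983438: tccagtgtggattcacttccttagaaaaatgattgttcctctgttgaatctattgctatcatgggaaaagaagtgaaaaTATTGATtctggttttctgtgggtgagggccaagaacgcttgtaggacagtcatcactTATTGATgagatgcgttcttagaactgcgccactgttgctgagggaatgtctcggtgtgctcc
*Sik3*, chr9:45842785-45842984: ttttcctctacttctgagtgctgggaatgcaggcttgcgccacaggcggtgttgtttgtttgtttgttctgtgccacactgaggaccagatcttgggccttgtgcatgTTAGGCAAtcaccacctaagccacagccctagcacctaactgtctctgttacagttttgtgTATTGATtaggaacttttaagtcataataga
The peak near *Thrb*, the thyroid hormone receptor beta gene, and the peak near *Chn2*, which encodes a chimaerin, lay between genes at -5.70 and -6.21 kb from the gene starts. The peak in an intron of *Sik3*, a salt-inducible kinase gene, also held a C/EBP match.

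Peaks were assigned to genes by a window from 50 kb upstream of the transcription start site (TSS) to 2 kb past the end of each protein-coding gene of the GENCODE annotation. Of 22367 genes, 10034 (44.9%) had 1 or more PROX1 peaks, 2744 (12.3%) had 5 or more, 595 (2.66%) had 10 or more and 49 had 20 or more. The other 12333 genes (55.1%) had none. Over all genes the median was 0 and the mean 1.64 peaks, and among genes with any peak the median was 3. The windows overlapped, so that 48.6% of the peaks fell in 1 window, 32.3% in 2 or more and 19.1% in none. Of all genes, 1487 (6.65%) had a peak within 1 kb of the gene start. Of the 2744 genes with 5 or more peaks, 2030 (74.0%) had none there. These genes were picked by their peaks in a window that holds the start. A higher share with a peak there than among all genes would follow from that choice, so none is read from it. Only the outermost annotated start of each gene was counted here. Longer windows held more peaks. Of the 4 equal groups of genes by window length, 4.77%, 8.78%, 12.5% and 23% had 5 or more, from the shortest windows, up to 56.7 kb, to the longest, from 94.5 kb. The mean density did not follow length in this way, with 1.35, 2.08, 2.16 and 1.75 peaks per 100 kb.

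**Figure D1:**
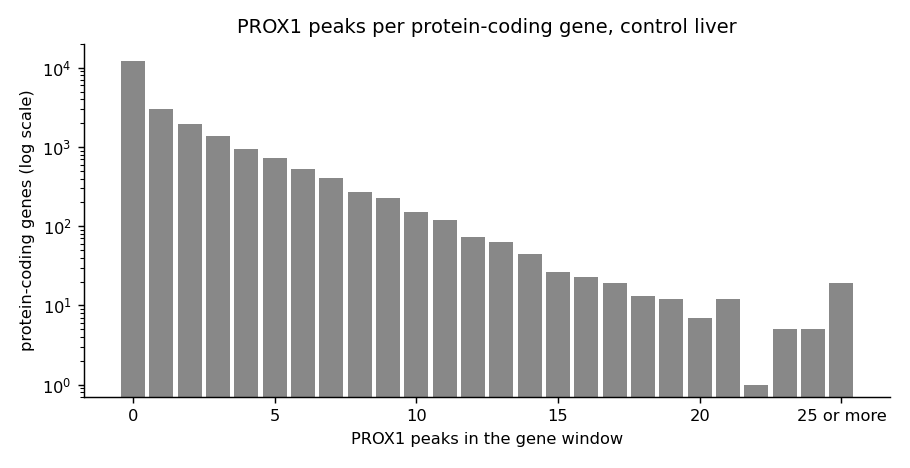
Number of protein-coding genes (log scale) by the number of PROX1 peaks in their window, from 0 to 25 or more. The bar at 0 holds 12333 genes and the last bar 19.

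The genes with the most peaks were long ones. Counts of 134 for *Gm20388* and 51 for *Fgfr2* belong to annotated spans of 4435 and 3009 kb that run across many other genes, and only 3 and 1 of these peaks had the start of the named gene as their nearest gene start. *Arfip1*, with 27 peaks over a window of 1443 kb, was of the same kind, with 4. Among the others, *Arhgap26*, a GTPase activator gene, had 43 peaks in 827 kb, but 28 of these lay nearest to the start of *Fgf1*. *Rora*, which encodes a clock-linked orphan nuclear receptor, had 39 peaks in 786 kb, all at least 159.9 kb downstream of its annotated start, and 27 of them were nearest to *Narg2*. *Nfia*, a nuclear factor I gene, had 32, of which 28 lay nearest to *E130114P18Rik*, and *Prkce*, a protein kinase C gene, had 30, of which 23 lay nearest to *Gm10309*. The genes for which the nearest start was mostly their own were *Zmiz1*, which encodes a transcriptional coregulator (31 of 34 peaks), *Lpp* (26 of 35), *Thrb* (26 of 27), *Rad51l1* (26 of 27), *Rbm47*, an RNA-binding protein gene (18 of 27), *Mtus1* (18 of 26), *Iqgap2* (17 of 25), *Aldh1l1*, a folate enzyme gene (17 of 29), and *Fkbp5*, a glucocorticoid-responsive chaperone gene (16 of 25). All 30 peaks of *Zbtb20*, a repressor gene, were nearest to a start of that name, 12 to this entry and the others to a second, shorter entry in the annotation. Between these were *Itpr1*, which encodes an inositol trisphosphate receptor (14 of 29), *Chn2* (12 of 25) and *Sik3* (9 of 24). For *Sik3*, 15 peaks lay nearest to *Apoa1*, at the far end of the kinase gene. Over the 20 genes the share of peaks in the HDAC3 list ran from 60% at *Lpp* to 88.9% at *Rbm47*. The share with HNF4A varied more, from 24% (6 of 25) at *Fkbp5* and 25.9% (7 of 27) at *Rad51l1* to 76% (19 of 25) at *Chn2*.

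Per length of window, short genes stood highest. *Leap2*, which encodes a secreted liver peptide that blocks the ghrelin receptor, had 13 peaks in 53.0 kb, or 24.5 per 100 kb, against a median of 3.06 per 100 kb among genes with any peak. All 13 were in the HDAC3 list and 5 had HNF4A. The peaks lay from -38.8 to -0.119 kb from the start, and the start of *Leap2* was the nearest for 3 of them and that of *Gm10447* for 5. *Apoa4* and *Apoa5*, apolipoprotein genes of 1 cluster, had 13 each, at 23.7 and 23.5 per 100 kb, and 12 of the 13 were in the HDAC3 list at either gene. The start of *Apoa4* was the nearest for 1 of its 13 peaks and that of *Apoa1* for 11, and 6 of the 13 were left with 20 kb upstream and 1 with the gene body. *Gstp1* and *Gstm1*, which encode glutathione transferases, had 12 each, with 8 and 10 in the HDAC3 list, and 2 and 7 of these lay nearest to the gene's own start. *Hes6*, a bHLH repressor gene, had 12, but 8 of these lay nearest to the clock gene *Per2*. *Cml5* had 12, of which 8 were nearest to *Cml2*, and *1700048O20Rik* had 13, all in the HDAC3 list, of which 7 were nearest to *Cyp8b1*, the sterol 12-alpha-hydroxylase gene of bile acid synthesis. *Adh1*, the liver alcohol dehydrogenase gene, had 17 peaks in 81.7 kb. *Pck1*, which encodes the gluconeogenic enzyme PEPCK, had 12 peaks, 11 upstream and 1 past its end, of which 8 were in the HDAC3 list and 8 had HNF4A.

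**Figure D2:**
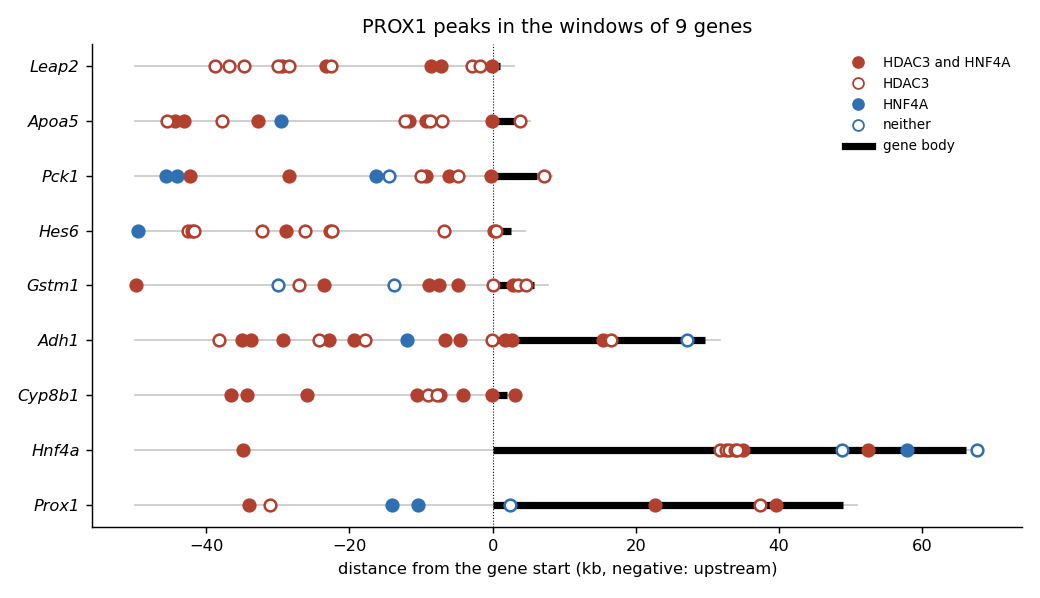
PROX1 peaks in the windows of 9 genes, by distance from the gene start in kb (negative: upstream). Each circle is 1 peak, red if it is in the HDAC3 list and blue if not, filled if it has HNF4A and open if not, the grey line is the window and the black bar the gene body. The 13 *Leap2* peaks are all red and upstream, and the 8 *Prox1* peaks include 3 blue ones.

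The windows of *Pck1* and *Prox1* held peaks of all 4 classes by partner. At *Pck1* the peak nearest the start, at -0.292 kb, had both partners and an HNF4A score of 113.1. The next ones upstream, at -4.86, -6.11, -9.25 and -10.0 kb, were all in the HDAC3 list, and HNF4A was present at -6.11 and -9.25 kb. At -14.5 and -16.3 kb followed 2 peaks outside the HDAC3 list, the nearer with neither partner. At *Prox1*, 4 peaks lay upstream, at -10.4, -14.0, -31.2 and -34.0 kb, and 4 in introns, at 2.44, 22.7, 37.3 and 39.6 kb. The 3 peaks nearest to its start were outside the HDAC3 list, and the other 5 were in it. At the *Apoa5* locus 6 peaks had that gene's start as the nearest.

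Peaks formed runs. Counting as a chain all neighbours whose centres lay at most 10 kb apart, 987 chains had 5 or more peaks and together held 6471 (23.6% of the list), while 7883 peaks (28.7%) stood alone. Chains of 5 or more had a median length of 17.7 kb. The longest had 20 peaks over 84.2 kb in *Shb*, which encodes a signalling adapter, with 19 of them in introns, 17 in the HDAC3 list and 12 with HNF4A. The next had 19 peaks over 64.2 kb from *Klf15*, a fasting-linked transcription factor gene, into *Aldh1l1*, with 15 in the HDAC3 list. Then came 3 chains of 18 peaks. In *Zmiz1*, 16 of 18 were in the HDAC3 list, with 17 in introns. At *Gpam*, which encodes the mitochondrial acyltransferase that starts triglyceride synthesis, 16 of 18 were in it, and 12 were intronic. At *Tsc22d3*, the X-linked gene of the glucocorticoid-induced protein GILZ, 6 of 18 were in it and 15 were between genes.

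The median distance from a PROX1 peak to the nearest other one, on either side, was 3.48 kb, and 21.2% had another within 1 kb. Between neighbouring peaks along a chromosome the median gap was 10.6 kb and the mean 92.9 kb. Peaks spaced evenly would lie 96.8 kb apart, and a random placement was not tested. At the other extreme, 464 gaps of over 1 Mb made up 37.3% of the chromosomes. Another PROX1 peak lay within 10 kb of 74.3% of the peaks shared with HDAC3 (95% Wilson CI 73.7 to 74.9) and of 63.0% of the others (61.9 to 64.1), a difference of 11.3 percentage points (Pearson's chi-square p = 8.9e-76). The difference ran from 4.91 to 17.2 over the chromosomes and had this sign in 20 of 20. In the HNF4A list, which is shorter with 24253 peaks, 62.0% had a neighbour of the same list within 10 kb, 9.21 percentage points below PROX1 (chi-square p = 2.5e-109, 20 of 20 chromosomes). The lists overlap and differ in length and threshold, and the part of these in the difference was not tested.

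HDAC3 was more frequent in chains. Of the peaks in chains of 5 or more, 80.5% (79.5 to 81.5) were in the HDAC3 list, against 65.3% (64.2 to 66.3) of those alone, a difference of 15.2 percentage points (chi-square p = 3.6e-91, 19 of 20 chromosomes). The share rose through 72.1% in pairs, 75.7% in chains of 3 to 4 and 79.5% in chains of 5 to 6 to 82.2% in chains of 7 to 9, and was 80.8% in chains of 10 or more. HNF4A did not follow the same order: it was at 54.4% of the peaks in chains and 54.2% of those alone (difference 0.222, chi-square p = 0.79). That near-equality depended on the gap allowed in a chain, since the difference was -5.73 (chi-square p = 2.4e-06) with 5 kb and 3.23 (p = 0.00010) with 20 kb. Among peaks outside the HDAC3 list, HNF4A was at 32.1% (29.5 to 34.7) in chains and 41.7% (39.9 to 43.6) alone, 9.65 percentage points lower (chi-square p = 5.8e-09, 16 of 20 chromosomes), a direction kept in all 7 alternatives run. Among peaks shared with HDAC3 the values were 59.8% and 60.8% (chi-square p = 0.30). The contrast between both classes was tested by an interaction term in a logistic model over peaks (log odds ratio 0.375, SE 0.0822, n = 14354 peaks, p = 5.2e-06).

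**Figure D3:**
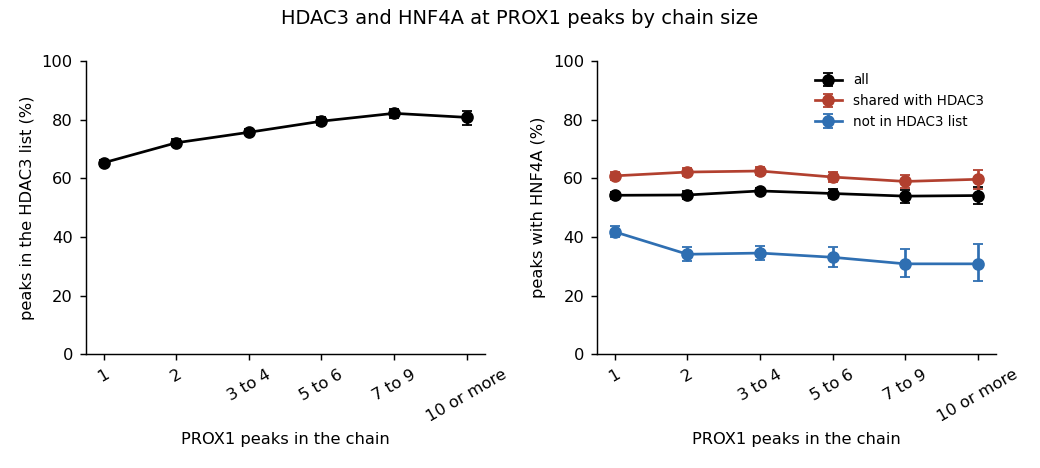
Share of PROX1 peaks in the HDAC3 list (left) and with HNF4A (right) by the number of peaks in their chain, in percent with 95% Wilson intervals. The HDAC3 share goes from 65.3% for lone peaks to 80.8% in chains of 10 or more, and the HNF4A share outside the HDAC3 list from 41.7% to 30.8%.

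Most PROX1 peaks lay away from promoters. A TSS of a protein-coding gene lay within 1 kb of 9.54% (95% CI 9.20 to 9.90), 2.71% were in other exons, 45.5% in introns and 42.2% between genes, with a median of 15 kb to the nearest TSS and 11.6% beyond 100 kb. Of the HNF4A list 12.5% lay within 1 kb, so that PROX1 was 3.0 percentage points lower (chi-square p = 1.0e-27, lower on 20 of 20 chromosomes). Within the PROX1 list, peaks with HNF4A were at promoters less often than those without (8.61% against 10.7%, chi-square p = 6.4e-09, 19 of 20 chromosomes). Using only HNF4A peaks above the median score ended this call (difference -0.631, chi-square p = 0.094). Peaks in chains of 5 or more were at promoters slightly more often than lone peaks (10.4% against 8.42%, chi-square p = 3.9e-05, 17 of 20 chromosomes).

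The X chromosome was sparsely bound. It held 301 peaks, or 1.81 per Mb, whereas the autosomes ran from 8.65 per Mb on chromosome 14 to 17.8 on chromosome 19. The HNF4A list was also uneven, with 1.61 per Mb on X and 7.82 to 15.1 on the autosomes. Protein-coding genes were at 5.59 per Mb on X, near the 5.70 of chromosome 18, where PROX1 had 10.2 peaks per Mb. The donors were male and have 1 copy of X, and the part of copy number and of read mappability in the peak density was not tested. Of the X peaks 50.5% (95% CI 44.9 to 56.1) were in the HDAC3 list, against 73.3% on the autosomes (chi-square p = 6.7e-19), and 51.6% without the chain at *Tsc22d3*.

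Genes were then read by their function. Over 16 lists of liver genes, 212 of 221 genes (95.9%) had 1 or more PROX1 peaks and 132 (59.7%) had 5 or more, against 44.9% and 12.3% of all genes. With each peak given only to the gene with the nearest start, the shares with 1 or more were 90.5% of the liver genes and 35.0% of all. The lists are a choice of well-known liver genes together with the clock and NCoR-HDAC3 complex genes, and the counts are a description. The 16 medians ran from 2 to 9 peaks, against 0 over all genes. Many peaks at these genes were not particular to PROX1. For peaks of the HNF4A list the 16 medians ran from 2.5 for the cholesterol genes to 7 for the hepatocyte transcription factors. Over all genes, 49.7% had 1 or more HNF4A list peaks in the window.

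Among the hepatocyte transcription factors, all 19 genes matched had a peak and 12 had 5 or more. *Nr5a2*, which encodes the bile acid regulator LRH-1, had 19 peaks, of which 12 were in the HDAC3 list. *Nr1h4*, the bile acid receptor FXR gene, and *Ppara*, the fatty acid receptor gene, had 17 each, with 11 and 16 in that list. *Hnf4a* had 11 peaks, of which 4 had HNF4A itself, *Onecut2* 10, *Rxra* 9, *Prox1* and *Cebpa* 8 each, *Gata4* and *Xbp1* 6 each, *Cebpb* 5, *Onecut1* 3 and *Foxa3* 2. *Foxa1*, *Foxa2*, *Nr2f2* and *Tbx3* had 1 each. Only *Nr5a2*, *Nr1h4* and *Foxa2* had peaks within 1 kb of the gene start. In the NCoR-HDAC3 complex, the corepressor gene *Ncor1* had 7 peaks, the core subunit genes *Tbl1xr1* and *Tbl1x* had 9 and 7, and *Hdac3* and *Gps2* had 0.

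Clock genes all had peaks, with a median of 4. After *Rora* came *Per2* and *Hlf* with 11 each and *Nfil3* and *Cry2* with 9, while *Nr1d2*, *Dbp*, *Tef* and *Bhlhe41* had 1 each. Of their 123 assigned peaks 45.5% had HNF4A, against 54.7% of the whole PROX1 list. The apolipoprotein genes had the highest median, 9 peaks or 14.7 per 100 kb, but most lie in 2 clusters and share them, so that 99 assignments came from 56 different peaks, 89.3% of them in the HDAC3 list. *Apom* alone of 12 had 0. The bile acid list followed with a median of 8. There *Cyp8b1*, *Baat*, *Cyp27a1*, *Slco1b2* and *Klb* had 10 each, *Cyp7a1*, the first enzyme of the main synthetic route, had 2 and *Fgfr4*, the FGF15 receptor gene, had 0. In the glucose list the median was 7, with 23 peaks at *Pcx*, the pyruvate carboxylase gene, 12 at *Pck1*, 11 at *G6pc* and 10 at *Fbp1*, the other gluconeogenic enzymes. The glycolytic gene *Pklr* had 1.

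**Figure D4:**
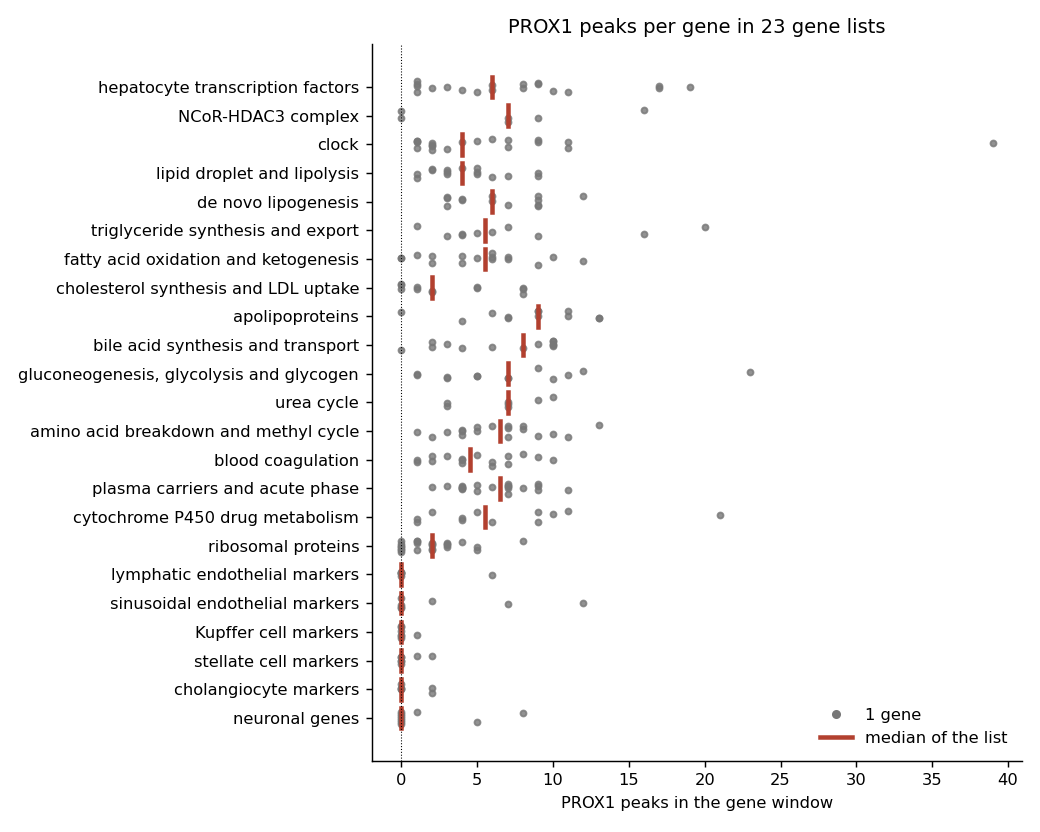
PROX1 peaks in the window of each gene (grey points, shifted vertically for visibility) in 23 gene lists, with the list median in red. The medians of the upper 16 lists lie between 2 and 9, that of the ribosomal proteins at 2 and those of the 6 lists below at 0.

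Lipid genes varied within each list. In triglyceride synthesis and export, *Gpam* had 20 peaks and *Dgat2*, which encodes a last-step acyltransferase, 16, with 18 and 15 in the HDAC3 list, while *Mogat1* had 1. Of the 75 peaks of that list 92% were in the HDAC3 list, the highest share of the 16 lists. In fatty acid oxidation and ketogenesis, *Ehhadh*, a peroxisomal enzyme gene, had 10 peaks, while *Fgf21*, which encodes a fasting hormone, had 0. In de novo lipogenesis the median was 6, led by *Elovl6* with 12, while *Scd1*, *Srebf1* and *Me1* had 3 each. In the lipid droplet list, with a median of 4, *Mgll* and *G0s2* had 9 each and *Cidea* and *Fitm2* 1 each. Cholesterol synthesis and LDL uptake had the lowest median, 2. There the regulatory genes *Insig1* and *Insig2* had 8 each, and the enzyme genes *Mvk* and *Idi1* had 0.

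The remaining liver lists had medians of 4.5 to 7. Urea cycle genes had 3 to 10 peaks, with the most at *Asl* and the fewest at *Otc* and *Nags*. In amino acid breakdown *Tdo2*, the tryptophan dioxygenase gene, had 13 and *Glul*, glutamine synthetase, 1. Coagulation genes ran from 10 at *F11* to 1 at *F7* and *F13b*, and plasma protein genes from 11 at *Gc*, the vitamin D carrier, to 2 at *Vtn*. Of the drug metabolism genes *Por*, the P450 reductase, had 21 peaks, *Cyp2e1* 11, and *Cyp2a5* and *Cyp26a1* 1 each. Among ribosomal protein genes 17 of 24 had a peak (70.8%), against 44.9% of all genes, with a median of 2 and 8 at *Rpl23*. With 5 or more there were 3 (12.5%), near the 12.3% of all genes.

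Genes of other cell types differed within their lists. *Stab2*, a sinusoidal endothelial scavenger receptor, had 12 peaks in 219 kb, *Pecam1* 7, *Lyve1* 6 and the neuronal genes *Syt1* and *Slc17a7* 8 and 5. The other markers with a peak were *Stab1*, *Acta2*, *Spp1* and *Sox9* with 2 each and *Csf1r*, *Des* and *Rbfox3* with 1 each, and the remaining 31 of the 43 had 0, among them *Cdh5*, *Flt4*, *Clec4f*, *Lrat* and *Krt19*. Of the 21 peaks of the sinusoidal list 47.6% were in the HDAC3 list, and of the 14 of the neuronal list 50%, against 73.1% of the whole PROX1 list. Most peaks of these 2 lists were at *Stab2* (5 of 12 in the HDAC3 list) and *Syt1* (3 of 8). The smaller lists had 3 of 4 for cholangiocytes, 2 of 3 for stellate cells, 3 of 6 for lymphatic endothelium and 0 of 1 for Kupffer cells. A peak in such a window need not act on that gene, and the cells it came from are unknown.

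The sequences under the peaks were searched for 15 motifs on both strands, in the 200 bp of each peak and in windows of the same length 2 kb to either side, of which 3.88% touched another PROX1 peak. In 12 of 15 the share was higher in peaks (Pearson's chi-square test, Benjamini-Hochberg adjusted over the motifs). In 1 it was lower, the GC box GGGCGGG (1.41% against 1.86%, chi-square test, adjusted p = 3.7e-06), and in 2 it did not differ past the threshold. The 15 motifs were settled after a first look at a longer set, which the adjustment does not cover. At least 1 of the 6 liver motifs shown above stood in 63.9% of peaks and 24.7% of flanks, and at least 2 different ones in 17.5% and 2.37%. The half-site AGGTCA was in 31.8% of peaks against 12.8% of flanks, the C/EBP motif in 25.3% against 8.16%, the NFI half-site TTGGCA in 23.4% against 10.2%, the ONECUT motif in 9.44% against 2.23%, the FOXA motif in 7.91% against 2.81%, the HNF4 motif in 7.54% against 1.04% and the HNF1 motif in 1.44% against 0.197%. The adjusted p was at most 1.9e-102 for each of these. The LRH-1 motif TCAAGGTCA, which contains the half-site, was in 1.67% against 0.647%. Smaller ratios were found for the STAT motif TTCCNNGAA (5.65% against 3.06%), the AP-1 motif TGANTCA (8.86% against 6.05%), the E-box CACGTG (3.76% against 2.61%) and the GATA motif AGATAA (13.2% against 11.0%). The letters AAGACG, a core bound by PROX1 itself, were in 2.09% of peaks and 2.28% of flanks (chi-square test, adjusted p = 0.094). With flanks 5 kb away, or with peaks beyond 1 kb of a TSS only, the share in peaks was lower past the threshold (chi-square test, adjusted p = 0.0014 and 0.035). The CTCF motif was in 0.0729% and 0.0675%. Median GC content was 46% in peaks and 45% in flanks.

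Matches of the ONECUT, C/EBP and HNF4 motifs gathered at the peak centre, and those of FOXA and the half-site did so less strongly. Of the ONECUT matches inside peaks shared with HDAC3, 45.6% had their middle within 25 bp of the peak centre, and of those in the other peaks 51.1%, where an even spread would give about 25%. For C/EBP the values were 39.0% and 37.6%, for HNF4 36.3% and 39.8% and for the AAGACG core 23% and 24.1%. FOXA had 32.6% and 34.8%, and the half-site 31.5% and 32.7%.

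**Figure D5:**
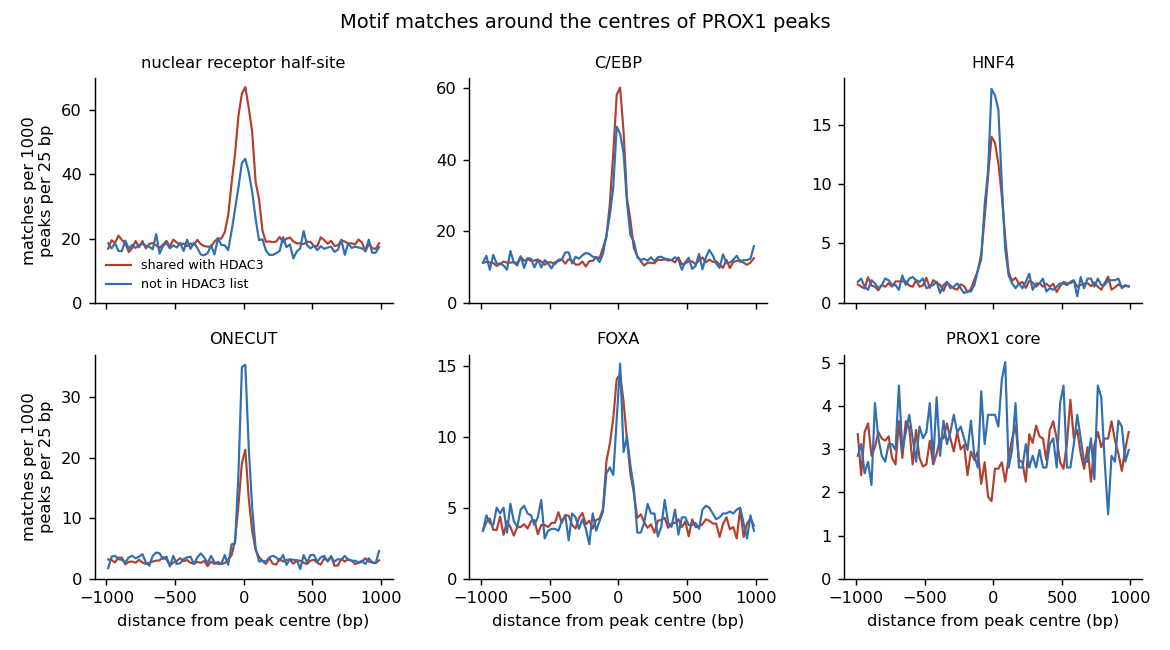
Motif matches per 1000 PROX1 peaks in bins of 25 bp, by distance from the peak centre in bp, for peaks shared with HDAC3 (red) and the others (blue). The ONECUT curve is higher at the centre in blue, the half-site curve in red, and the PROX1 core has no central rise in red.

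The classes differed in motif. The half-site was in 34.6% of the peaks shared with HDAC3 and 24.2% of the others (difference 10.4 percentage points, chi-square test, adjusted p = 4.2e-59, 20 of 20 chromosomes), and C/EBP in 26.1% against 22.9% (adjusted p = 1.7e-07). Without an HNF4A peak the C/EBP difference turned, with 23.9% in peaks with HDAC3 alone and 25% in those with neither, and did not pass the chi-square test (difference -1.07, adjusted p = 0.264). By the same chi-square test the ONECUT motif went the other way, 8.33% against 12.5% (difference -4.13, adjusted p = 2.4e-24, 20 of 20 chromosomes), as did HNF4, 7.21% against 8.45% (adjusted p = 0.0011), and AAGACG, 1.77% against 2.98% (adjusted p = 2.4e-09, 19 of 20 chromosomes). In the flanks of both classes the ONECUT share was 2.23%, and that of AAGACG 2.34% and 2.11%. In the 4 classes by partner the ONECUT motif was in 12.9% of peaks with neither, 11.7% with HNF4A alone, 9.18% with both and 6.98% with HDAC3 alone. HNF4 was in 17.5% of the peaks with HNF4A alone, 10.3% with both, 3.19% with neither and 2.30% with HDAC3 alone.

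Clustered and lone peaks differed as well. In chains of 5 or more the ONECUT motif was in 6.91% of peaks, against 12.1% of lone peaks (chi-square test over 7 motifs, adjusted p = 1.2e-24), C/EBP in 22.8% against 27.9% (adjusted p = 9.1e-12) and HNF4 in 6.38% against 8.64% (adjusted p = 9.3e-07). These 3 held separately in the peaks shared with HDAC3 and in the others. The lone peak, with no neighbour within 10 kb, held these 3 motifs more often than the peak in a chain, while the AAGACG core was in 1.95% of peaks in chains and 2.16% of lone peaks (chi-square test, adjusted p = 0.38).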

How the data were processed

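PROX1, HDAC3 and HNF4A were measured by ChIP-seq in mouse liver. Reads had been aligned by the authors with Bowtie 0.12.7 (build mm9); they removed duplicates, pooled replicates and called peaks with HOMER against IgG, keeping those over 3 times the input and above 2 rpm (PROX1, HNF4A) or 1.5 rpm (HDAC3). They deposited 1 list per factor: peak positions, and for HNF4A also the HOMER score, as the submitted values. The HNF4A list had been filtered on the knockout. Co-bound HDAC3 and PROX1 peaks needed 50% overlap and 1 rpm of the other factor, and stand at identical positions in both lists. Depth per library is unknown.

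The 3 empty lines of the PROX1 list were left out. A peak had HNF4A when 1 HNF4A peak covered at least 50% of it. Genes, TSSs and exons are of protein-coding genes of GENCODE vM1 on NCBIM37 (mm9). Of 290 list entries 288 matched by symbol or RefSeq synonym. The test of 2 shares was Pearson's chi-square over peaks (two-sided, uncorrected for continuity), with differences per chromosome (19 autosomes and X) beside them. Motifs, consensus letters from general knowledge, were settled after a first look at a longer set. The genes named are the 20 with most peaks and the 10 densest with 5 or more, skipping a gene that shares over 50% of its peaks with one already named, the 5 longest chains, *Prox1*, the hepatocyte factor and NCoR-HDAC3 lists and, of the other lists, the members with most peaks and with 0. Other members, and the loci drawn or printed, were chosen after their values were seen. The members and lists were chosen with earlier results of these data known. The code was tested on simulated data. The tools were samtools 1.23.1 and Python 3.11.15 with matplotlib 3.10.9, scipy 1.17.1, statsmodels 0.14.6, pandas 2.3.3, numpy 2.4.6 and pysam 0.24.0. Alternatives changed gene windows, peaks counted, promoter and chain limits, overlap, HNF4A threshold, chromosomes, motif windows, flanks and the chi-square correction. Some members of the lists are counted but not reported here by name. RNA-seq, H3K27ac and the knockout ChIP-seq were not analysed here.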

Additional observations from a re-analysis of the deposited data

Results flagged for a closer look

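Among the PROX1 peaks outside the HDAC3 list, HNF4A was less frequent in chains of 5 or more than at lone peaks, by -9.65 percentage points, while among the peaks shared with HDAC3 the difference was -1.0. The contrast between both classes passed the test of the interaction given in the report (n = 14354 peaks, p = 5.2e-06). With 5 kb in place of 10 kb the difference among shared peaks was -7.71 and among the others -13.9, so its size depends on how a chain is defined.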

How the results depend on the processing

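Of 414 alternative values, 110 of 136 for the main results kept their direction and their side of the threshold, or for counts stayed within 1.5 times. Genes with 1 or more peaks fell to 5929 with the gene body and 2 kb to either side. Genes with 5 or more numbered 1647 with 20 kb upstream, 4608 with 100 kb and 1075 with the gene body, and genes with 10 or more 342, 1340 and 266, and 309 when only peaks shared with HDAC3 were counted. With the gene body alone, 46 liver genes had 5 or more peaks, 6 genes of other cells had 1 or more and the apolipoprotein median was 2, or 5.5 with 20 kb. Promoter shares of shared and other peaks differed by 1.13 with 500 bp (chi-square p = 0.00035) and 1.47 with 2 kb (p = 0.0029), against 0.772 with 1 kb (p = 0.054). With HNF4A peaks above the median score, the promoter difference between peaks with and without HNF4A was -0.631. The HNF4A share in chains against lone peaks differed by -5.73 with 5 kb gaps, 3.23 with 20 kb, -0.736 with 75% overlap, 5.65 with HNF4A above the median score, -1.0 among shared peaks and -9.65 among the others. Among shared peaks it was 2.40 with 20 kb gaps and 4.93 above the median score. The CTCF difference was -0.0128 with 100 bp windows, -0.0182 with flanks 5 kb away and -0.00403 beyond 1 kb of a TSS. By the chi-square test that of AAGACG was -0.361 (adjusted p = 0.0014) and -0.242 (adjusted p = 0.035) with the last 2 settings. Between shared and other peaks, without an HNF4A peak, C/EBP was at -1.07 and LRH-1 at -0.399, so the C/EBP call rests on peaks with HNF4A. HNF1 was at -0.0443 beyond 1 kb and GATA at 0.168 with 100 bp. In chains of shared peaks HNF1 was at 0.0613 and AAGACG at 0.0175. The cause was not tested. The class splits, the X value without *Tsc22d3* and the motif comparisons between classes were added after seeing the data.

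No paired analysis was possible because the authors pooled the replicates before calling peaks. For the same reason no library was left out, and the PROX1 list has no scores for a stricter threshold.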

Other observations

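The PROX1 list is divided by empty lines into 4 blocks without labels. The last block holds the 7384 peaks outside the HDAC3 list, and there the share with HNF4A went from 47.9% (95% CI 45.3 to 50.4) in the first of 5 equal runs of entries through 42.2%, 37.7% and 30.7% to 24.8% (22.7 to 27.1) in the last. The median distance to the nearest other PROX1 peak went from 4.01 to 8.19 kb over the same runs. The other 3 blocks hold the peaks shared with HDAC3. There the HNF4A share lay between 65.9% and 66.8% in every run of the first block, went from 53.5% in the first run to 46.7% in the last of the second, and from 40.7% to 26.0% in the third. What orders the entries is not stated in the sources used here.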
